A study of Mus musculus with 9 samples.

Results

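The genes described here are 8 genes by which blood monocytes, and the macrophages that arise from them, are usually recognized: the chemokine receptors Ccr1, Ccr2, Cx3cr1 and Cxcr4, the monocyte genes Ly6c2 and Plac8, and the matrix genes Vcan and Fn1. They were picked by symbol, and all 8 were found among the 23413 genes of the count table and passed the filter on low counts. RNA-seq was performed on liver macrophages sorted as F4/80+CD11b+Gr1low cells from male C57BL/6 mice, placed on a diet at 5 weeks of age for 8 weeks. The groups were 2 libraries from mice on normal chow (ND), 3 from mice on a high-fat diet given vehicle (HFD vehicle) and 4 from mice on the high-fat diet given diphenyleneiodonium (DPI), an agonist of the receptor GPR3 (HFD DPI). The study also describes DPI as an inhibitor of NADPH oxidases. DPI at 2 mg/kg or its vehicle, PEG3000, was injected intraperitoneally every 5 days from week 3 of the diet. A second account in the sample labels, of isolated Kupffer cells exposed to 500 nM DPI for 24 h, differs from this one, which was followed because the series' design and methods give it.

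Classical monocytes leave the bone marrow through CCR2, carry high Ly6C and enter injured or fatty liver, where they can turn into macrophages. Patrolling monocytes carry low Ly6C and high CX3CR1. CXCR4 binds CXCL12 and holds myeloid cells in the bone marrow, and CCR1 binds CCL3, CCL5 and related chemokines. Kupffer cells, the resident macrophages of the liver, express little Ccr2, Cx3cr1 and Ly6c2 once mature and are defined by others such as Clec4f, Vsig4 and Timd4.

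Total counts lay between 3534325 and 15585775 per library (median 4918629), with the highest in DPI library 1, and 27.0% to 44.5% of them fell on the ribosomal RNA precursor Rn45s. Counts are given below as CPM, which scales each count to the library total corrected by edgeR's TMM factors, in the order of the library numbers, and 11393 genes were tested. Changes are log2 fold changes with their standard error from edgeR's quasi-likelihood test over all 9 libraries, and a gene was called at the study's threshold of an unadjusted p under 0.05 with a change of at least 2-fold. No member, and no other gene of the lists below, passed an adjusted p under 0.05 by this test in any comparison. Since the RNA came from bulk samples, more cells of a kind and more RNA per cell cannot be told apart. The p-values set each change against a spread between libraries of the same group. This spread was pooled over the groups of all 9 libraries and drew on other genes, so it is not that of any 1 group.

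The labelled cell type was checked first. Clec4f had 0 and 244 counts in the ND libraries, 42, 0 and 0 in the HFD vehicle libraries, and 219, 6, 4 and 6 in the HFD DPI libraries. Vsig4 had at most 49 counts and Timd4 at most 28, each with 3 counts or fewer in at least 5 of the 9 libraries, as had Marco, Cdh5, Folr2 and C6 among the 18 Kupffer cell markers examined. In contrast, Ly6c2 had 2422 counts or more in every library, and Lyz2, a lysozyme of myeloid cells, had 62983 or more. Other genes of the Kupffer cell list, which other macrophages also express, were present in every library, with 80 to 1776 counts of C1qa, 199 to 5255 of C1qb, 113 to 1578 of C1qc, 729 to 5064 of Id3 and 219 to 2315 of Emr1. Because the most specific markers were near 0 in several libraries, the libraries are called by their sort, sorted liver macrophages.

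**Figure D1:**
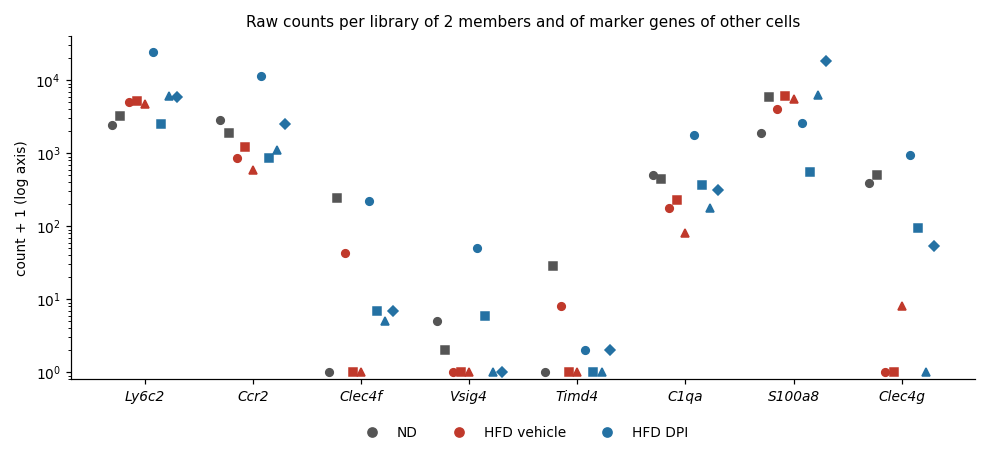
Raw counts plus 1 (log axis) of Ly6c2, Ccr2 and 6 marker genes in the 9 libraries, with circle, square, triangle and diamond for libraries 1 to 4. Ly6c2 and Ccr2 lie at or above 592 counts in every library, while the Kupffer cell genes Clec4f, Vsig4 and Timd4 reach the bottom of the axis (0 counts) in several libraries of more than 1 group.

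To compare levels between genes, CPM was divided by exon length, which gives RPKM. The median over the 9 libraries was 1208 RPKM for Plac8, 342 for Ly6c2, 68.4 for Cxcr4, 48.4 for Fn1, 37.8 for Ccr2, 30.4 for Ccr1, 21.7 for Cx3cr1 and 13.4 for Vcan. Plac8 ranked between 30 and 70 among the 10703 tested genes with a known length and Ly6c2 between 103 and 209, so both were among the most abundant transcripts of every library. Plac8 at its lowest (835 RPKM) stood above Ly6c2 at its highest (544), and Ly6c2 at its lowest (161) above Cxcr4 at its highest (132). The ranges of all neighbours further down this order overlapped. Vcan was the lowest of the 8, at percentiles 65.0 to 90.4 of the tested genes.

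With the high-fat diet, the members moved in opposite directions. Cxcr4 rose 3.43-fold, Ly6c2 rose 2.06-fold and Ccr2 fell 2.34-fold from ND to HFD vehicle, while Ccr1, Cx3cr1, Plac8, Vcan and Fn1 did not pass the threshold. Thus 2 of the 8 members were called higher and 1 lower, where 7.03% of all tested genes were called higher and 4.63% lower. After adjustment 0 of the 8 passed, and 7 of 11393 genes (0.0614%) did by edgeR's quasi-likelihood test, against 312 by DESeq2 and 280 by edgeR's likelihood ratio test, with no member among them. Under DPI, Cxcr4 fell 2.11-fold from HFD vehicle and Ccr2 was 1.97-fold higher, just short of the threshold, while the log2 fold changes of the other 6 members lay between -0.19 and 0.03. In this comparison 0 of the 8 members were called higher and 1 lower, against 1.5% and 1.34% of all tested genes. No gene passed the adjustment (0 of 11393, 0%) by edgeR's quasi-likelihood test, where 470 genes had an unadjusted p under 0.05, and 2 passed by DESeq2 and 1 by edgeR's likelihood ratio test. Between HFD DPI and ND, 0 of the 8 members were called in either direction, against 6.24% of tested genes higher and 3.05% lower, and 1 gene (0.00878%) passed the adjustment, against 212 by DESeq2 and 186 by the likelihood ratio test, again with no member among them. Scaling libraries by their totals alone turned the split of higher and lower genes from 801 and 528 to 539 and 933 for HFD vehicle against ND, from 171 and 153 to 196 and 101 for HFD DPI against HFD vehicle, and from 711 and 347 to 546 and 624 for HFD DPI against ND. Markers of eosinophils were examined beside the changes under DPI. The 8 markers summed to 6.56 and 5.6 CPM in ND, 9.77, 8.89 and 6.94 CPM in HFD vehicle, and 117, 117, 5.38 and 75.7 CPM in HFD DPI, with 4 of the 6 tested called higher in HFD DPI than in either other group. DPI libraries 1, 2 and 4 were high and DPI library 3 was not, and the part of this in the changes of the members under DPI was not tested. The comparisons share libraries, HFD vehicle in the first 2 and ND in the first and last, so opposite signs for a gene in the first 2 are not independent measurements.

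**Figure D2:**
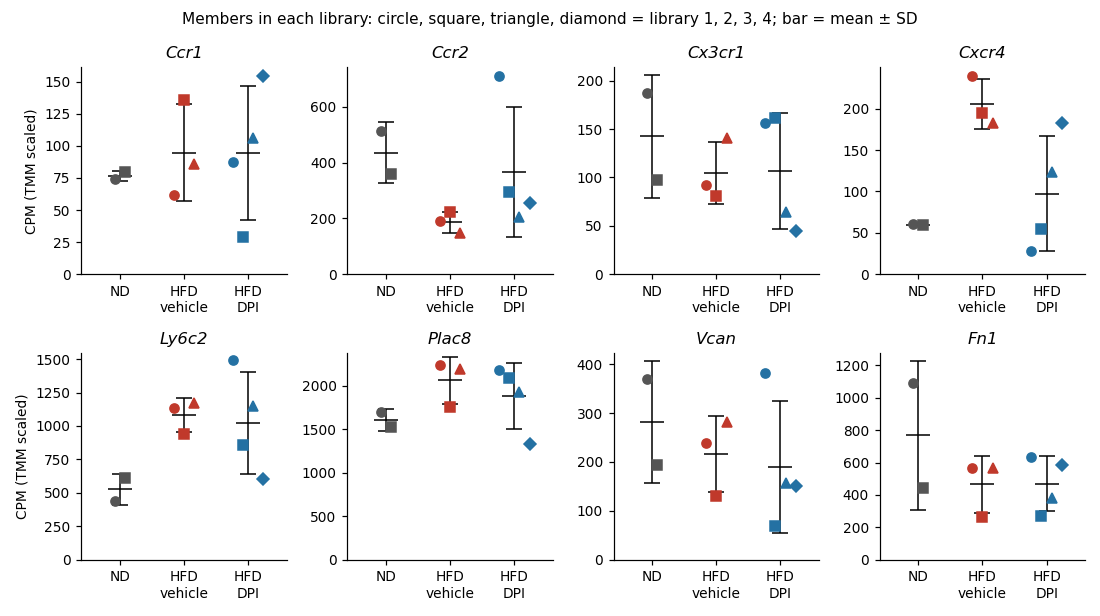
CPM (TMM scaled, linear axes from 0) of each member in each library, with bars for the mean ± SD of ND (n = 2), HFD vehicle (n = 3) and HFD DPI (n = 4). HFD vehicle lies wholly above ND for Cxcr4, Ly6c2 and Plac8 and wholly below it for Ccr2, and HFD DPI overlaps both other groups for every member.

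CCR2 is the receptor for CCL2 and brings classical monocytes from the marrow into blood and tissue. Ccr2 (ENSMUSG00000049103.14, chromosome 9 from 124101950 to 124113557, GRCm38) had 514 and 359 CPM in ND, 189, 223 and 147 CPM in HFD vehicle, and 713, 296, 204 and 255 CPM in HFD DPI. All HFD vehicle libraries stood below both ND libraries, and HFD DPI overlapped both groups, with DPI library 1 above every other library. The log2 fold change of HFD vehicle against ND was -1.23 ± 0.45 (SE), past the threshold, with an adjusted p of 0.306 from edgeR's quasi-likelihood test and the Benjamini-Hochberg method. Without ND library 1 it was -0.93 and without HFD vehicle library 3 it was -1.03, and neither passed the threshold. For HFD DPI against HFD vehicle it was 0.98 ± 0.39 (adjusted p = 0.999 by the same edgeR test). Its size there depended on single libraries, at 0.43 without DPI library 1 and past the threshold without HFD vehicle library 2 (1.13) or DPI library 2 (1.06), 3 (1.18) or 4 (1.12). Against ND, Ccr2 in HFD DPI differed by -0.25 ± 0.43.

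Markers of liver sinusoidal endothelial cells moved in the same direction as Ccr2. The 10 markers summed to 222 and 353 CPM in ND, 25.8, 20.0 and 34.0 CPM in HFD vehicle, and 248, 131, 16.1 and 44.0 CPM in HFD DPI. Of the 10, 6 were called lower and 1 (Pecam1) higher in HFD vehicle than in ND, and 4 higher and 0 lower in HFD DPI than in HFD vehicle. The lectin Clec4g, a defining one, had 0, 0 and 7 counts in HFD vehicle, and Lyve1, Cdh5 and Tie1 had 3 counts or fewer in at least 5 libraries. Hepatocyte markers summed to 341 and 559 CPM in ND, 169 to 216 CPM in HFD vehicle and 212 to 345 CPM in HFD DPI, with 4 of 12 called lower in HFD vehicle than in ND and none called under DPI. F4/80 itself (Emr1, now Adgre1), on which the cells were sorted, had 139 and 115 CPM in ND, 61.5, 67.3 and 55.0 CPM in HFD vehicle and 56.4 to 142 CPM in HFD DPI. Of the 13 Kupffer cell markers tested, 3 (C1qa, Emr1 and Clec1b) were called lower and 1 (Id3) higher in HFD vehicle than in ND, and 2 (C1qa and C1qc) higher and 1 (Spic) lower in HFD DPI than in HFD vehicle. All 18 listed markers summed to 651 and 779 CPM in ND, 651 to 1315 CPM in HFD vehicle and 727 to 1281 CPM in HFD DPI. Id3 made up much of this sum, with 219.5 and 136 CPM in ND, 437, 918 and 451 CPM in HFD vehicle and 194 to 521 CPM in HFD DPI. Of the 13 tested, 9 had a negative and 4 a positive change in HFD vehicle against ND (median -0.69). In HFD DPI against HFD vehicle 5 were negative and 8 positive (median 0.53). The log2 fold change of C1qa was -1.37 ± 0.57 in the first comparison and 1.14 ± 0.50 in the second. The part of these markers in the Ccr2 result was not tested.

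CXCR4 retains myeloid cells in the marrow and is induced by hypoxia and glucocorticoids. Cxcr4 (ENSMUSG00000045382.6, chromosome 1 from 128588199 to 128592293) had 60.5 and 59.2 CPM in ND, 239, 195 and 182 CPM in HFD vehicle, and 28.0, 54.7, 124 and 183 CPM in HFD DPI. The HFD vehicle libraries all stood far above both ND libraries, and the DPI libraries ran from below ND (1 and 2) to the HFD vehicle range (4). The log2 fold change of HFD vehicle against ND was 1.78 ± 0.61 (adjusted p = 0.281, edgeR's quasi-likelihood test). It passed the threshold with any library left out, at 1.70 to 1.91. The log2 fold change of HFD DPI against HFD vehicle was -1.08 ± 0.47 (adjusted p = 0.999 by the same edgeR test). This call was lost without HFD vehicle library 1 (-0.96), 2 (-1.12) or 3 (-1.17), without DPI library 1 (-0.77) or 2 (-0.89), and when libraries were scaled by their totals alone (-0.98), and without DPI library 4 the change was -1.58. Against ND, Cxcr4 in HFD DPI had a log2 fold change of 0.70 ± 0.56, or 1.01 and past the threshold without DPI library 1.

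Neutrophils, which also carry CXCR4, were examined beside it, although the Gr1low gate of the sort would remove neutrophils with high Gr-1. The 14 neutrophil markers summed to 1508 and 3478 CPM in ND, 2825, 3844 and 4368 CPM in HFD vehicle, and 1187, 978, 4168 and 6416 CPM in HFD DPI. Among the DPI libraries, 1 and 2 were the lowest and 4 the highest in both this sum and Cxcr4, whereas ND library 2 had a high sum and a low Cxcr4. None of the 14 was near 0 throughout, 1 was called higher and 2 lower in HFD vehicle than in ND, and 3 higher in HFD DPI than in HFD vehicle. Their part in the Cxcr4 result was not tested.

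The calls of Cxcr4 and Ccr2 can also be read as a ratio, chosen after the values were seen and not independent of those calls. The number of Ccr2 counts per Cxcr4 count, which needs no scaling between libraries, was 8.49 and 6.06 in ND, 0.791, 1.15 and 0.804 in HFD vehicle, and 25.4, 5.41, 1.65 and 1.40 in HFD DPI. Every HFD vehicle library was below every other library. Over the 9 libraries, log2 CPM of the genes had a Pearson correlation of -0.88, the most negative of the 28 member pairs, given as a description since groups and depth are shared by the points.

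**Figure D3:**
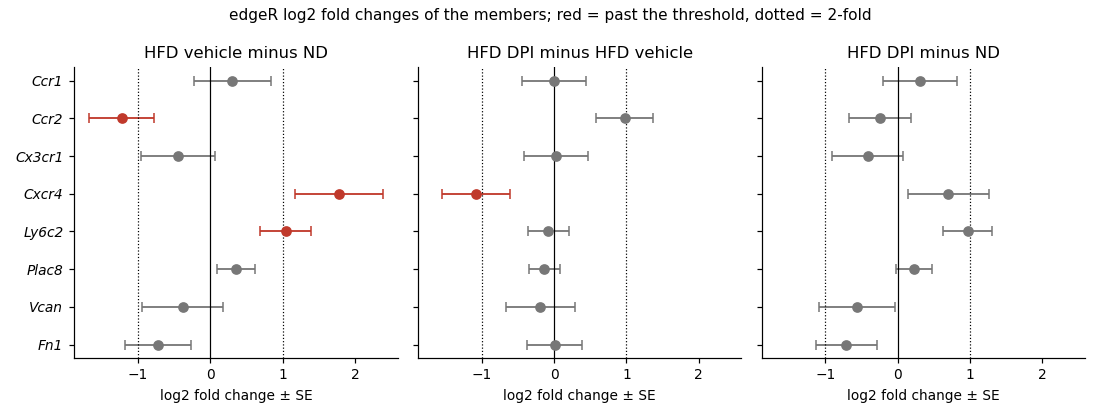
Log2 fold change ± SE (edgeR) of each member in the 3 comparisons, with dotted lines at 2-fold and red for members past the study's threshold. Cxcr4, Ly6c2 and Ccr2 are red for HFD vehicle minus ND, Cxcr4 alone for HFD DPI minus HFD vehicle, and none for HFD DPI minus ND.

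CX3CR1, the receptor for the membrane-bound chemokine CX3CL1, marks patrolling monocytes and several tissue macrophages. Cx3cr1 (ENSMUSG00000052336.7, chromosome 9 from 119901616 to 120069879) had 187 and 97.7 CPM in ND, 92.6, 80.5 and 141 CPM in HFD vehicle, and 156, 161, 64.8 and 45.1 CPM in HFD DPI. The groups overlapped in each comparison. Log2 fold changes were -0.44 ± 0.52 for HFD vehicle against ND, 0.03 ± 0.44 for HFD DPI against HFD vehicle and -0.42 ± 0.49 for HFD DPI against ND. Without ND library 1, the first became 0.11 and the last 0.14, so no direction can be given for Cx3cr1.

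CCR1 is an inflammatory receptor of monocytes and neutrophils. Ccr1 (ENSMUSG00000025804.5, chromosome 9 from 123962124 to 123968692) had 73.9 and 79.4 CPM in ND, 61.9, 136 and 86.2 CPM in HFD vehicle, and 87.2, 28.9, 106 and 155 CPM in HFD DPI. The ND libraries lay inside the range of both HFD groups. Log2 fold changes were 0.31 ± 0.54 for HFD vehicle against ND, -0.0026 ± 0.44 for HFD DPI against HFD vehicle and 0.30 ± 0.51 for HFD DPI against ND.

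Ly6C, the surface protein that separates classical from patrolling monocytes, is encoded in the mouse by the neighbouring genes Ly6c1 and Ly6c2. The start of their coding sequences is shown because reads of the pair are hard to assign. Both are 393 bases long and differ at 9 of them (97.71% identity), and the first 240 bases, from the GENCODE M21 annotation of GRCm38, are printed with the 6 differing bases in capitals:
Ly6c2-201: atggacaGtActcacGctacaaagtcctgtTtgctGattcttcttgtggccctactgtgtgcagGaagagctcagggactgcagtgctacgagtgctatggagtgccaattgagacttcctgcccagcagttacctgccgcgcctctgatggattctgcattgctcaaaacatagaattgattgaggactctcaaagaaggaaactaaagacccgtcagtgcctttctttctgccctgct
Ly6c1-201: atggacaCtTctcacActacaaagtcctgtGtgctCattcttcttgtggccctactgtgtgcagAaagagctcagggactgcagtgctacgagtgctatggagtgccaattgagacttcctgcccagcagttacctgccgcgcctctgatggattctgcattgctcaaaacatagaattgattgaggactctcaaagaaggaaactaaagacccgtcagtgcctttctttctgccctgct
Of the 773 stretches of 50 bases in the Ly6c2-201 transcript, 252 (32.6%) also occur in Ly6c1-201, so part of the reads could be split between the genes and each level is uncertain to that extent. Ly6c1 took 1.29% to 2.09% of the counts of the pair, so the level of Ly6c2 would be little changed by adding both.

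Ly6c2 (ENSMUSG00000022584.14, chromosome 15 from 75108158 to 75111970) had 441 and 609 CPM in ND, 1136, 937 and 1173 CPM in HFD vehicle, and 1492, 854, 1148 and 606 CPM in HFD DPI. All HFD vehicle libraries stood above both ND libraries, and so did the DPI libraries apart from DPI library 4, which was level with ND library 2. The log2 fold change of HFD vehicle against ND was 1.04 ± 0.35 (adjusted p = 0.278, edgeR's quasi-likelihood test). It fell short of 2-fold without ND library 1 (0.84) and when libraries were scaled by their totals alone (0.75). Under DPI it stayed close to HFD vehicle, with a log2 fold change of -0.08 ± 0.29. Against ND, HFD DPI was 0.97 ± 0.34 higher (adjusted p = 0.369 by the same edgeR test), just short of the threshold, which it passed without ND library 2 (1.25), HFD vehicle library 1 (1.00) or 3 (1.01), or DPI library 2 (1.08) or 4 (1.15). The sort acted on the product of this gene, since antibodies to Gr-1 bind Ly6G and can bind Ly6C, so the values describe cells inside the Gr1low gate.

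PLAC8 is a small cysteine-rich protein of myeloid cells. Plac8 (ENSMUSG00000029322.12, chromosome 5 from 100553725 to 100572245) had 1698 and 1520 CPM in ND, 2236, 1753 and 2187 CPM in HFD vehicle, and 2175, 2081, 1924 and 1330 CPM in HFD DPI. HFD vehicle lay above ND without overlap, though HFD vehicle library 2 exceeded ND library 1 by little, and DPI library 4 was the lowest of all 9. The log2 fold change of HFD vehicle against ND was 0.36 ± 0.26 (adjusted p = 0.600, edgeR's quasi-likelihood test), which did not pass the threshold. It was -0.13 ± 0.22 for HFD DPI against HFD vehicle and 0.22 ± 0.25 for HFD DPI against ND, the smallest standard errors among the members. Plac8 and Ly6c2 had a Pearson correlation of log2 CPM of 0.77 over the 9 libraries. DPI library 4, low in both, had the highest neutrophil sum (6416 CPM) and B cell sum (442 CPM) of all libraries.

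In HFD vehicle against ND, 3 members (Cxcr4, Ly6c2 and Plac8) were higher in every library without overlap and 1 (Ccr2) was lower. Of all tested genes, 15.04% were higher and 12.47% lower without overlap in that comparison. None of the 8 separated in HFD DPI against HFD vehicle (3.38% and 2.48% of all genes) or in HFD DPI against ND (11.67% and 8.50%).

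Versican (Vcan), a matrix proteoglycan, and fibronectin (Fn1), an adhesive matrix glycoprotein, are made by classical monocytes and by the macrophages that derive from them. Vcan (ENSMUSG00000021614.16, chromosome 13 from 89655312 to 89742509) had 369 and 194 CPM in ND, 238, 130 and 282 CPM in HFD vehicle, and 383, 69.3, 157 and 151 CPM in HFD DPI. Fn1 (ENSMUSG00000026193.15, chromosome 1 from 71585520 to 71653200) had 1094 and 443 CPM in ND, 567, 263 and 566 CPM in HFD vehicle, and 634, 272, 384 and 584 CPM in HFD DPI. The groups overlapped for both genes, and ND library 1 was well above ND library 2 in both. For Fn1 the log2 fold changes were -0.72 ± 0.45 for HFD vehicle against ND, 0.01 ± 0.38 for HFD DPI against HFD vehicle and -0.71 ± 0.42 for HFD DPI against ND. For Vcan they were -0.38 ± 0.56, -0.19 ± 0.47 and -0.56 ± 0.53.

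The direction of the matrix genes depended on single libraries. Without ND library 1, HFD vehicle against ND was 0.17 for Vcan and 0.08 for Fn1. Without ND library 2, Fn1 was called lower in HFD vehicle (-1.21) and in HFD DPI (-1.19) than in ND. Without DPI library 1, Vcan was called lower in HFD DPI than in ND (-1.16). The genes moved with each other over the 9 libraries (Pearson correlation of log2 CPM 0.84, the highest of the 28 member pairs), while neither followed Ly6c2 (0.07 for Vcan and -0.32 for Fn1).

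Ratios between members show the same separation without scaling between libraries. The number of Ly6c2 counts per Ccr2 count was 0.859 and 1.70 in ND, 6.0, 4.2 and 8.0 in HFD vehicle, and 2.09, 2.89, 5.62 and 2.37 in HFD DPI. Per Cx3cr1 count it was 2.36 and 6.23 in ND, 12.3, 11.6 and 8.32 in HFD vehicle, and 9.57, 5.29, 17.7 and 13.4 in HFD DPI. Both ratios were higher in each HFD vehicle library than in either ND library. These ratios were chosen after the values were seen and are given as descriptions.

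**Figure D4:**
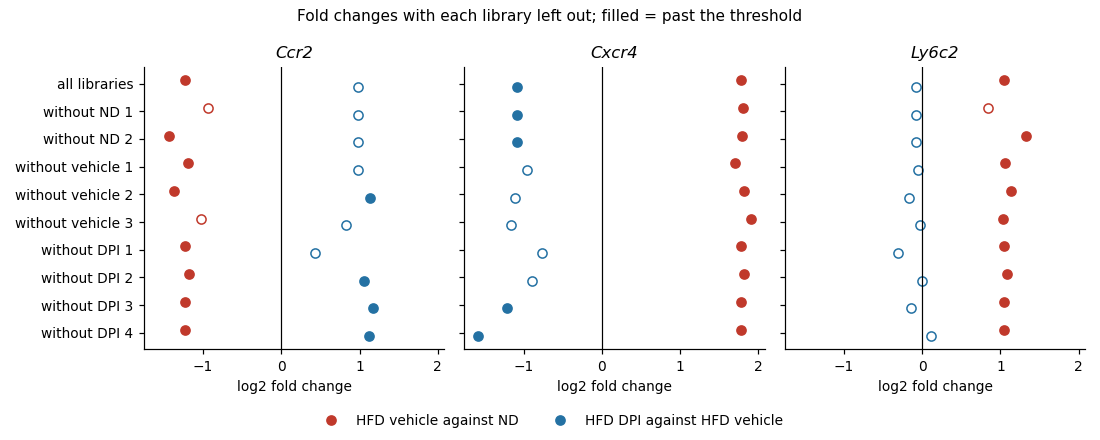
Log2 fold changes (edgeR) of Ccr2, Cxcr4 and Ly6c2 with all libraries and with each library left out, for HFD vehicle against ND (red) and HFD DPI against HFD vehicle (blue), filled where past the study's threshold. Only Cxcr4 in HFD vehicle against ND stays filled throughout, between 1.70 and 1.91.

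Other genes of these cells were compared from lists written by hand. Of 26 other genes of classical monocytes, such as adhesion and secreted proteins, all were tested and 0 were called in either direction for HFD vehicle against ND, with a median log2 fold change of 0.05 (0.03 over all tested genes), and likewise 0 for HFD DPI against HFD vehicle, with a median of 0.01 (0.04 over all). For HFD DPI against ND, 1 of 26 was called higher, where 6.24% of all tested genes were, and the median was -0.01 (0.04 over all). The 1 gene was Ly6c1, at 8.74 and 8.96 CPM in ND, 14.9, 15.2 and 25.0 CPM in HFD vehicle and 29.6, 16.6, 23.6 and 12.4 CPM in HFD DPI, so every HFD library exceeded both ND libraries. Its log2 fold change was 1.22 ± 0.55 for HFD DPI against ND, a call lost without ND library 1 or 2, HFD vehicle library 2, or DPI library 1 or 3 (0.98 to 1.27), and kept under only 5 of the 11 other processing alternatives (1.01 to 1.24 over all 11). Ly6c1 shares sequence with Ly6c2, as shown above, so its counts are not independent of those of Ly6c2.

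Of 16 patrolling monocyte genes, 2 were called higher and 1 lower in HFD vehicle than in ND, and 0 higher and 2 lower in HFD DPI than in HFD vehicle. The medians were 0.03 and -0.39 (0.03 and 0.04 over all tested genes). Of all tested genes, 7.03% were called higher and 4.63% lower in the first comparison, and 1.5% and 1.34% in the second. The fatty acid transporter gene Cd36 had 27.0 and 28.6 CPM in ND, 111, 88.0 and 81.5 CPM in HFD vehicle, and 22.5, 37.7, 47.1 and 73.6 CPM in HFD DPI. The DPI libraries were all below the HFD vehicle libraries. Its log2 fold changes were 1.75 ± 0.47 for HFD vehicle against ND and -1.04 ± 0.36 for HFD DPI against HFD vehicle. Nr4a1, the nuclear receptor that patrolling monocytes need and that is also induced quickly on cell activation, had 626 and 951 CPM in ND, 1575, 1867 and 1870 CPM in HFD vehicle, and 364, 522, 786 and 1669 CPM in HFD DPI. HFD vehicle was above ND throughout, and DPI library 4 was within the HFD vehicle range. Its log2 fold changes were 1.17 ± 0.50 and -1.08 ± 0.40. For Cd36, Nr4a1 and Cxcr4 alike, DPI library 1 had the lowest and DPI library 4 the highest value of the 4. Under DPI, the calls of Cd36 and Nr4a1 were lost without DPI library 1 (-0.82 and -0.84) or 2 (-0.98 and -0.92), and that of Cd36 also without HFD vehicle library 1 (-0.91), and both with scaling by library totals alone (-0.96 and -0.97). Without DPI library 4 the change of Nr4a1 was -1.67. For HFD vehicle against ND, the Nr4a1 call was lost without ND library 1 (0.91) or HFD vehicle library 2 (1.13) or 3 (1.18), or with scaling by library totals alone (0.88).

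The third called gene of the patrolling list, Pglyrp1, a peptidoglycan recognition protein of granules, had 116 and 142 CPM in ND, 62.4, 72.7 and 52.3 CPM in HFD vehicle, and 39.1, 74.0, 55.5 and 84.2 CPM in HFD DPI. Both HFD groups lay below both ND libraries. Its log2 fold changes were -1.04 ± 0.36 for HFD vehicle against ND and -1.03 ± 0.34 for HFD DPI against ND, close enough to 2-fold that leaving out any of ND library 2, HFD vehicle library 1 or 3 lost either call (-0.99 to -0.85). Without DPI library 2 the first was not called, and without DPI library 1 (-0.86) or 3 (-0.98), or without DPI libraries 1 and 4 together (-0.97), the second was not. For HFD DPI against ND, 0 of the 16 genes were called higher and 1 lower (6.24% and 3.05% over all tested genes), with a median of -0.45 (0.04 over all).

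Of 18 genes of monocyte development and adhesion, 1 was called higher in HFD vehicle than in ND, 0 in HFD DPI than in HFD vehicle and 1 in HFD DPI than in ND, with 0 lower and medians of -0.03, -0.08 and -0.06. The shares called higher over all tested genes were 7.03%, 1.5% and 6.24%, those called lower 4.63%, 1.34% and 3.05%, and the medians 0.03, 0.04 and 0.04. The called gene of the list was Pecam1, an adhesion molecule of leukocytes and endothelium, at 0.911 and 1.12 CPM in ND, 8.66, 9.07 and 1.74 CPM in HFD vehicle and 10.7, 8.83, 3.15 and 19.2 CPM in HFD DPI. It was low in ND, with 5 and 6 counts, and its log2 fold changes were 2.66 ± 1.05 for HFD vehicle and 3.35 ± 1.06 for HFD DPI against ND. The first was not called without ND library 1 (2.53) or HFD vehicle library 1 (2.46) or 2 (2.34), in a fit of the 2 groups only (2.65) or without DPI libraries 1 and 4 together (2.67), and the second was not called without those 2 DPI libraries (2.54).

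**Figure D5:**
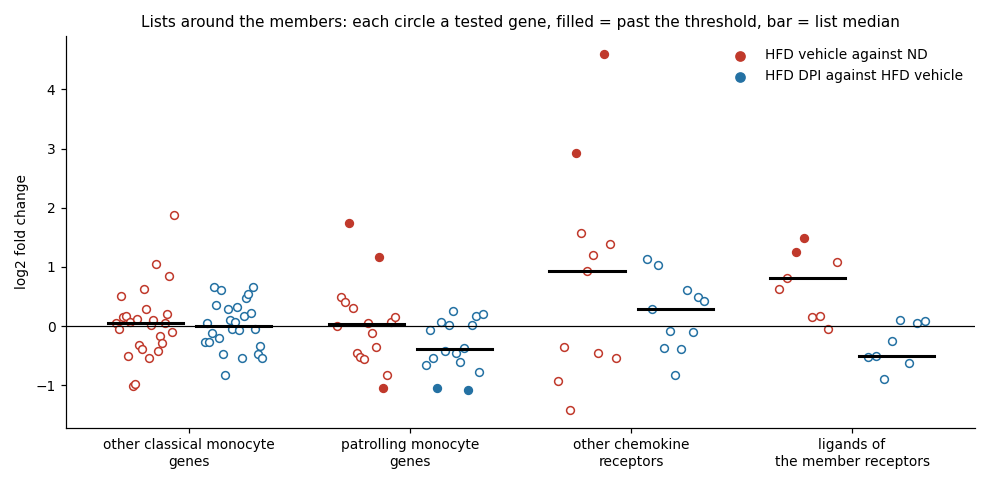
Log2 fold changes (edgeR) of the tested genes of 4 lists around the members, in HFD vehicle against ND (red) and HFD DPI against HFD vehicle (blue), filled where past the study's threshold and with a bar at the list's median. Classical monocyte genes have no filled circle, and Cx3cl1, at 0 counts in ND, is not drawn although it enters the median of the ligands.

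Chemokine receptors outside the 8 were compared as well. Of 20 other receptors, 11 passed the filter on low counts, 2 of them were called higher and 0 lower in HFD vehicle than in ND (median log2 fold change 0.93), 0 were called in HFD DPI against HFD vehicle (0.30), and 1 was called higher in HFD DPI than in ND (0.20). Over all tested genes the medians were 0.03, 0.04 and 0.04, with 7.03%, 1.5% and 6.24% called higher and 4.63%, 1.34% and 3.05% lower. Cxcr5, a receptor of B cells, had 0.182 and 1.49 CPM in ND, 25.1, 25.4 and 11.4 CPM in HFD vehicle and 5.95, 9.51, 18.0 and 43.6 CPM in HFD DPI. Ccr7, a receptor of dendritic cells and lymphocytes, had 0 and 46.7 CPM in ND, 115, 276 and 142 CPM in HFD vehicle and 34.0, 74.0, 122 and 320 CPM in HFD DPI. Every HFD library exceeded both ND libraries for Cxcr5 and all but DPI library 1 did for Ccr7. The log2 fold changes of HFD vehicle against ND were 4.60 ± 1.09 for Cxcr5 and 2.93 ± 1.28 for Ccr7. Their adjusted p was 0.136 and 0.362 by edgeR's quasi-likelihood test. For HFD DPI against ND, Cxcr5 had 4.50 ± 1.07 (adjusted p = 0.146 by the same edgeR test). With 1 library left out, Cxcr5 ran from 3.78 to 6.72 in the first comparison and from 3.68 to 6.61 in the second. It had only 1 and 8 counts in ND, so the size of its change is not well known. The Ccr7 call was lost without ND library 1 (1.94), HFD vehicle library 2 (2.46) or 3 (3.12), or DPI library 3 (2.92), by DESeq2 (2.90), with scaling by library totals alone (2.69) and in a fit of the 2 groups only (2.93). Without ND library 2, which leaves the ND library with 0 counts, the fitted value was 13.23, so the size of the Ccr7 change rests on that library and is not known.

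B cell markers were examined beside these receptors. The 7 B cell markers in the table summed to 15.9 and 76.4 CPM in ND, 108, 193 and 147 CPM in HFD vehicle, and 48.0, 19.7, 120 and 442 CPM in HFD DPI, with 1 of 7 called higher in HFD vehicle than in ND, 1 of 7 called higher in HFD DPI than in ND, 0 called in HFD DPI against HFD vehicle, and Cr2 near 0 counts. Their sum was higher in every HFD vehicle library than in ND, but DPI libraries 1 and 2 lay below ND library 2, unlike for Cxcr5. The 12 T and NK cell markers summed to 96.4 and 344 CPM in ND, 324 to 480 CPM in HFD vehicle and 304 to 600 CPM in HFD DPI, with 3 of 12 called higher in HFD vehicle and 4 of 12 in HFD DPI than in ND, and 0 in HFD DPI against HFD vehicle. The 11 dendritic cell markers other than Ccr7 summed to 158 and 140 CPM in ND, 155, 92.1 and 133 CPM in HFD vehicle, and 132 to 212 CPM in HFD DPI. The largest part was Itgax in ND library 1 (80.5 CPM) and Klrd1 in ND library 2 (40.9 CPM). Of the 11 tested dendritic cell markers, here with Ccr7, 5 had a positive and 6 a negative change in HFD vehicle against ND. Ccr7 alone was called in that comparison, and Cd209a and Dpp4 were called higher in HFD DPI than in ND. The part of the B, T, NK and dendritic cell markers in the Cxcr5 and Ccr7 results was not tested.

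Ligands of the member receptors complete the set. Of 12 ligands, 9 passed the filter, 3 were called higher and 0 lower in HFD vehicle than in ND (median 0.81), 0 higher and 1 lower in HFD DPI than in HFD vehicle (-0.50), and 1 higher in HFD DPI than in ND (0.31). Of all tested genes, 7.03%, 1.5% and 6.24% were called higher and 4.63%, 1.34% and 3.05% lower, with medians of 0.03, 0.04 and 0.04. Cxcl12, the ligand of CXCR4, had at most 3 counts in any library. Ccl8 and Ccl12 were also at 3 counts or fewer in at least 5 libraries. Cx3cl1, the ligand of CX3CR1, had 0 and 0 counts in ND, 68, 17 and 33 counts in HFD vehicle, and 0, 1, 0 and 0 counts in HFD DPI. The mean of HFD vehicle, 8.79 CPM, was at least 15.9-fold higher than ND and at least 17-fold higher than HFD DPI, taking 3 counts per library as the floor, which covers counting error only. The HFD vehicle libraries had 15.1, 3.08 and 8.18 CPM, so these bounds lean on HFD vehicle library 1 and would be lower without it.

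Ccl4 and Ccl5 encode inflammatory chemokines, and CCL5 binds CCR1. Ccl4 had 141 and 262 CPM in ND, 511, 442 and 494 CPM in HFD vehicle, and 132, 198, 409 and 305 CPM in HFD DPI. Its log2 fold change of HFD vehicle against ND was 1.26 ± 0.44, or 0.89 and not called without ND library 1 and 0.98 and not called with scaling by library totals alone. In HFD DPI against HFD vehicle it was -0.89 ± 0.35, with all 4 DPI libraries below all HFD vehicle libraries but short of 2-fold. Ccl5 had 85.1 and 347 CPM in ND, 402, 741 and 668 CPM in HFD vehicle, and 215, 846, 485 and 479 CPM in HFD DPI. ND library 1 stood far below the rest, and without it the log2 fold change against ND went from 1.48 ± 0.59 to 0.81 for HFD vehicle and from 1.23 ± 0.56 to 0.55 for HFD DPI. Without ND library 2 the values were 2.86 and 2.6. The first call was also lost without HFD vehicle library 2 (1.31), and the second was lost with any of 6 libraries left out and kept under 7 of the 11 other processing alternatives (0.98 to 1.64 over all 11).

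The genes with the pattern most like each member were taken over the 9 libraries by Pearson correlation of log2 CPM, among 7320 genes with a mean of at least 50 counts. Cxcr4 was most like Gpd2 (0.97), Klf6 (0.97) and Per1 (0.96), and Ccr2 was most like Cpq (0.96), Pole4 (0.93) and Ntan1 (0.93). Ly6c2 was most like Shisa5 (0.96), Capg (0.96) and Arl11 (0.95), and Plac8 was most like Isg15 (0.97), Psma5 (0.96) and Ifi47 (0.95). Isg15 and Ifi47 are interferon-induced genes, and Klf6 and Per1 are rapidly induced transcriptional regulators. Fn1 was most like Ei24 (0.98), Itgam (0.97) and Vill (0.95), and Itgam encodes CD11b, on which the cells were sorted. Vcan was most like Zcchc2, Lcp1 and Il18 (each 0.93), Ccr1 most like Mafk, Atp13a3 and Phkg1 (each 0.94) and Cx3cr1 most like B3gnt8 (0.91), Dpp7 (0.91) and Drg1 (0.90). These correlations describe points that share group, depth and scaling.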

How the data were processed

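Gene expression was measured by RNA-seq in 9 libraries of sorted mouse liver macrophages. The build was mm10. The methods name bowtie2 2.2.3 and RSEM 1.2.15, the submitters' processing notes name TopHat2 and edgeR, and the authors deposited raw whole-number counts per gene without normalization. The annotation and strand setting are not given in the sources used here, so reads of genes overlapping on opposite strands may not be told apart. Groups came from the sample titles, and 0 columns were left unmapped.

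Differences between groups were assessed in edgeR 4.0.16 (R 4.3.3) by filterByExpr, TMM factors and the quasi-likelihood test (glmQLFit, glmQLFTest) on all 9 libraries as 3 groups, with Benjamini-Hochberg adjustment over 11393 genes. The fit was tested on simulated data. CPM used TMM-scaled totals. At these depths 3 counts correspond to 0.184 to 1.02 CPM. Lengths, positions and coding sequences came from GENCODE M21 on GRCm38 (mm10). Symbols of the lists that had changed were matched through RefSeq synonyms. Python 3.11.15, numpy 2.4.6, pandas 2.3.3, scipy 1.17.1 and matplotlib 3.10.9 were also used.

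All 8 members were named. From each other list at most 3 called genes with the smallest p per comparison were named, marker genes of other cell types were named outside this limit after their values were seen, and for likeness the 3 genes with the highest correlation of log2 CPM (prior count 2). The members and lists were chosen with earlier results of these data known. Each result was recomputed with RLE factors, with totals alone as scaling, with no filter, with at least 10 counts in every library, by DESeq2 1.42.0, by edgeR's likelihood ratio test, in a fit of 2 groups, with a replicate block, without Rn45s, after thinning to the smallest depth and without each library in turn, except that Cxcr5, Ccr7, Cx3cl1 and Pecam1 fell under the filter of 10 counts.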

Additional observations from a re-analysis of the deposited data

How the results depend on the processing

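The number of members called in HFD vehicle against ND, 3, was within 1.5 times under each alternative other than the replicate block, where it was 1, and leaving out 1 library gave 1 to 4. In HFD DPI against HFD vehicle it was 1 in all alternatives other than leaving out 1 library, which gave 0 to 2. In HFD DPI against ND it was 0 in the main analysis, 1 under the replicate block (Ly6c2, 1.08), 0 to 2 with 1 library left out, and 2 without DPI libraries 1 and 4 together (Vcan -1.29 and Fn1 -1.20), an alternative chosen after seeing the data. Under the replicate block Ccr2 (-0.89) and Ly6c2 (0.99) fell short of 2-fold in HFD vehicle against ND, as did Pglyrp1 (-0.99), and Ly6c1 in HFD DPI against ND (1.24) lost its call. In HFD DPI against HFD vehicle the block made the changes of Cxcr4 (-1.82) and Nr4a1 (-1.74) larger. With library size scaling the counts of 3 and 1 held, but Fn1 (-1.05) took the place of Ly6c2 (0.75) in HFD vehicle against ND, and Ccr2 (1.06) that of Cxcr4 (-0.98) in HFD DPI against HFD vehicle. Libraries with the same number did not deviate together (correlations -0.022 to 0.084), so the numbers do not pair the mice. Of 813 values of single genes under all alternatives, 686 kept direction and side of the threshold, 72 lost a call, 18 gained one and 37 changed sign, all 37 of them members.

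For HFD DPI against HFD vehicle, Fn1 changed sign with RLE factors (-0.00073), DESeq2 (-0.00090), a fit of the 2 groups (-0.019), the replicate block (-0.12) and without DPI libraries 1 and 4 together (-0.50), Ccr1 with library size scaling (0.12) and no filter (0.0084), Ly6c2 with library size scaling (0.016) and the replicate block (0.10), and Plac8 with the replicate block (0.0067). For HFD DPI against ND, Plac8 changed sign with library size scaling (-0.0065), Ccr1 (-0.20), Ccr2 (0.035) and Cxcr4 (-0.22) with the replicate block, and Ccr1 without DPI libraries 1 and 4 together (-0.16). With 1 library left out, HFD vehicle against ND ran from -0.049 to 0.59 for Ccr1, -0.81 to 0.11 for Cx3cr1, -0.74 to 0.17 for Vcan and -1.21 to 0.077 for Fn1. HFD DPI against HFD vehicle ran from -0.35 to 0.35 for Ccr1, -0.24 to 0.29 for Cx3cr1, -0.32 to 0.11 for Ly6c2, -0.24 to 0.00026 for Plac8, -0.78 to 0.085 for Vcan and -0.27 to 0.20 for Fn1. HFD DPI against ND ran from -0.043 to 0.64 for Ccr1, -0.79 to 0.048 for Ccr2, -0.78 to 0.14 for Cx3cr1 and -1.19 to 0.091 for Fn1. The cause was not tested.

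Genes called were also counted over all tested genes, under the alternatives that kept both ND libraries. Those called higher and lower numbered 381 to 1045 and 287 to 933 in HFD vehicle against ND (801 and 528 in the main analysis). They numbered 65 to 281 and 65 to 321 in HFD DPI against HFD vehicle (171 and 153), and 245 to 958 and 265 to 624 in HFD DPI against ND (711 and 347). Those past the adjustment numbered 0 to 312 (7), 0 to 2 (0) and 0 to 212 (1). Fits without ND library 1 or 2 are left out of these ranges, since they leave 1 ND library assumed to vary like the other groups. Under scaling by totals alone, the median change over all tested genes went from 0.03 to -0.26, from 0.04 to 0.12 and from 0.04 to -0.17 on the log2 scale, in the same order. With 2 ND libraries and a biological coefficient of variation of 0.65, the standard errors of the members' log2 fold changes lay between 0.22 and 0.61. The rank correlation of counts over the tested genes was 0.74 between the 2 ND libraries. It was 0.87 to 0.88 within HFD vehicle and 0.84 to 0.89 within HFD DPI, so ND, the baseline of 2 comparisons, was the least alike inside.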
